A study of Saccharomyces cerevisiae with 28 samples.

Results

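The 2 arrays described here were each hybridised with RNA of 1 haploid segregant, a progeny strain of a cross between the yeast strains BY and RM. They were chosen by their titles, segregant 1 and segregant 2, and are 2 of 28 Affymetrix yeast arrays in the series. They were set against 3 arrays of RM haploids and 3 arrays of BY haploids. Below, RM arrays, BY arrays and parental arrays mean these haploid arrays unless diploids are named. RM is a strain isolated from a vineyard, and BY is a laboratory strain isogenic to S288C, whose genome is the reference for the species. All cells of Saccharomyces cerevisiae were in log phase. The labels give no marker mutations, mating type, culture medium or genotype map for any of these strains, and each segregant may have another genotype, so each was read alone. Arrays of RM diploids and BY diploids (3 each) served to check ploidy, and these, the diploid hybrids of BY and RM (6) and the equal mixtures of BY and RM mRNA (6) helped to estimate the spread between arrays.

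A haploid segregant inherits at each locus the allele of 1 parent, and meiosis shuffles long blocks of parental chromosome into a new combination. A transcript can follow the allele at its own gene, through its promoter or its stability, or the alleles of regulators elsewhere in the genome. A combination of alleles from both parents can also give a level that neither parent has, which is called transgressive.

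The files hold 1 level for each probe set and array, on a log2 scale, with array medians of 7.41 in segregant 1 and 7.46 in segregant 2, against 7.43 to 7.5 in RM haploids and 7.34 to 7.49 in BY haploids. Across 9274 probe sets, segregant 1 correlated at 0.9692 to 0.9716 with the BY arrays and at 0.9296 to 0.9403 with the RM arrays. Segregant 2 correlated at 0.9745 to 0.9795 with the BY arrays and at 0.9211 to 0.9283 with the RM arrays, and the segregants correlated with each other at 0.9743. Both segregants were thus more similar to BY than to RM by this description, in which probe sets are not independent. All differences below are log2 differences with the standard error of limma, and all p-values are limma's, adjusted by Benjamini and Hochberg's method across the 9274 probe sets and called under 0.05. Each segregant had 1 array, which the fit assumes to vary like the arrays of replicated groups. Since no label says that replicates were grown apart, the p-values speak for the spread between arrays only, which may be technical.

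The mating genes show what these cells were. All 7 measured a-cell genes and all 4 alpha-cell genes differed between the parents, and both segregants were BY-like at each of them, that is, they differed from the RM mean and were not called different from the BY mean. Over all 982 genes that differed between the parents, 17.3% were BY-like in segregant 1 and 25.1% in segregant 2. MFA2, which encodes the a-factor pheromone, had 6.73 in segregant 1, 6.80 in segregant 2, 12.62, 12.39 and 12.75 in RM haploids, and 7.14, 7.25 and 6.37 in BY haploids. The segregants were more than 5 log2 units below every RM array and within the BY range. The difference from RM was -5.86 ± 0.26 in segregant 1 (adjusted p = 7.7e-14) and -5.79 ± 0.26 in segregant 2 (adjusted p = 1.1e-13). STE2, the receptor for alpha-factor, had 6.03 in segregant 1, 6.18 in segregant 2, 10.76, 11.08 and 10.94 in RM haploids, and 6.14, 6.01 and 6.04 in BY haploids. BAR1, the secreted protease that degrades alpha-factor, had 5.74 and 6.0 in the segregants, 9.59 to 9.72 in RM haploids and 5.84 to 5.98 in BY haploids. MFA1, the other a-factor gene, had 9.22 in each segregant, 11.56 to 11.64 in RM haploids and 9.17 to 9.91 in BY haploids, on a probe set that can share sequence with relatives.

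The alpha-cell genes showed the opposite order. SAG1, which encodes alpha-agglutinin, had 12.59 in segregant 1, 12.32 in segregant 2, 7.24, 6.56 and 6.90 in RM haploids, and 12.12, 11.99 and 11.72 in BY haploids. Segregant 1 was 5.69 ± 0.22 above RM (adjusted p = 7.2e-15) and segregant 2 5.42 ± 0.22 above it (adjusted p = 2.3e-14). MF(ALPHA)1, which encodes alpha-factor, had 13.15 and 13.19 in the segregants, 7.74 to 8.67 in RM haploids and 12.85 to 12.95 in BY haploids. STE3, the receptor for a-factor, had 10.91 and 10.93 in the segregants, 7.46 to 7.99 in RM haploids and 10.41 to 10.83 in BY haploids. Both segregants and the BY haploids therefore carried the transcripts of alpha cells, and the RM haploids those of a cells. The mean of the 7 a-cell genes was 6.57 in segregant 1 and 6.68 in segregant 2, against 10.1 to 10.17 in RM haploids and 6.55 to 6.76 in BY haploids. The mean of the 4 alpha-cell genes was 12.31 and 12.26 in the segregants, 7.26 to 7.78 in RM haploids and 11.8 to 12.02 in BY haploids. The RM haploids thus differed from both segregants and from the BY haploids in mating genes, and the part of mating type in the classes below was not tested. In bulk RNA, fewer cells with a transcript and less of it per cell cannot be told apart.

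Genes that haploids of either mating type express and a/alpha diploids repress were read as a check of ploidy. Their mean over 9 genes was 8.4 in segregant 1 and 8.32 in segregant 2, while RM haploids had 8.11 to 8.36 and BY haploids 8.34 to 8.54. The diploids were lower, at 6.49 to 6.73 (RM) and 6.44 to 6.49 (BY). In both segregants 8 of the 9 were above all 6 diploid arrays. GPA1, the G protein subunit of the pheromone pathway, had 8.45 and 8.22 in the segregants, 8.03 to 8.16 in RM haploids and 7.95 to 8.21 in BY haploids. The exception was HO, the endonuclease that switches mating type. It had 6.62 in segregant 1, 6.59 in segregant 2, 6.99, 7.39 and 6.86 in RM haploids, and 8.66, 8.94 and 8.61 in BY haploids. HO was below the BY mean by -2.12 ± 0.24 in segregant 1 (adjusted p = 3.7e-06) and by -2.15 in segregant 2 (adjusted p = 5.2e-06), and neither differed from the RM mean by the test.

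**Figure D1:**
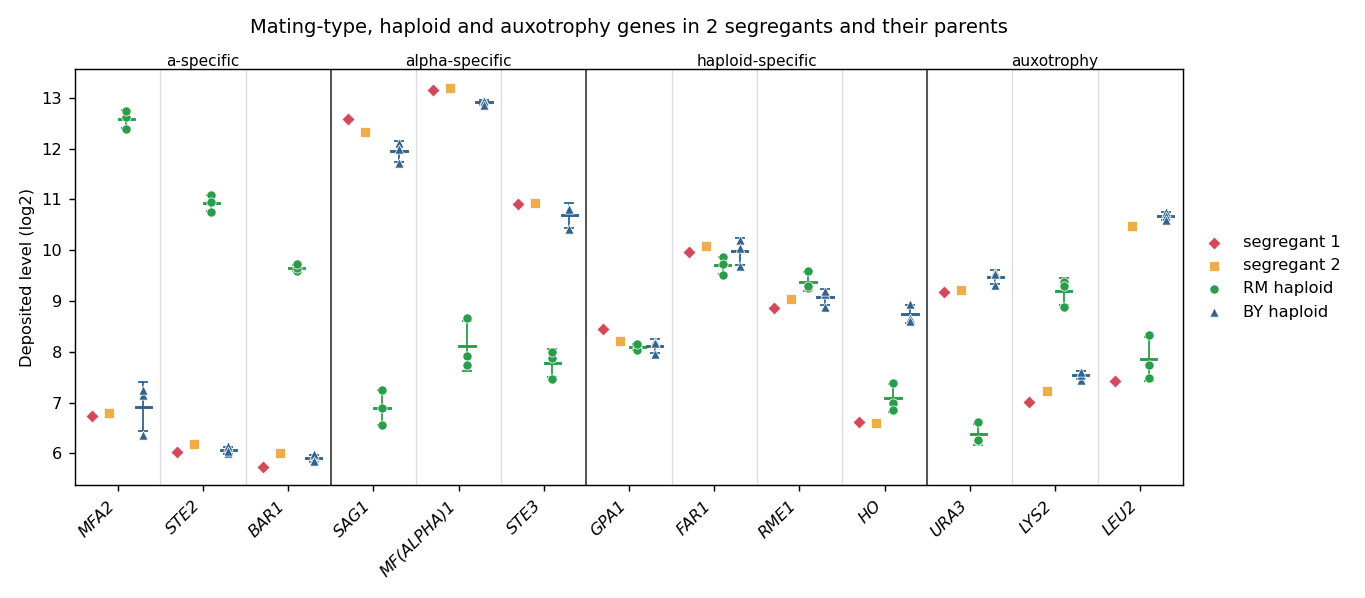
Deposited log2 levels (vertical axis) of mating and haploid marker genes (horizontal axis) on every array of the segregants, RM haploids and BY haploids, with 1 point per array and, for the parents, a bar at the mean with whiskers of 1 SD (n = 3). URA3, LYS2 and LEU2 of nutrient synthesis stand at the right. The segregants lie with the BY arrays at the a-cell genes (MFA2 at 6.73 and 6.80) and at the alpha-cell genes (SAG1 at 12.59 and 12.32), and near the RM arrays at HO (6.62 and 6.59).

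A parental class can be read only where the parents themselves differ. RM differed from BY haploids at 1669 of 9274 probe sets (18.0%), and, with 1 probe set per gene, at 982 of 5656 genes (17.4%), of which 686 (12.1%) were higher and 296 (5.23%) lower in RM. Beside BY-like as defined above, a segregant is called RM-like where the reverse held, between where it differed from both and lay between them, and unresolved where it differed from neither. A class is thus not evidence that the level equals that parent's. It refers to the haploid arrays of that parent, and diploids of the same strain can have another level. Segregant 1 was BY-like at 170 of the 982 genes (17.3%), RM-like at 133 (13.5%), between at 11, outside both parents at 5 and unresolved at 663. Segregant 2 was BY-like at 246 (25.1%), RM-like at 62 (6.31%), between at 6, outside at 4 and unresolved at 664. The smallest called parental difference was 0.27, while the smallest called difference from BY was 0.53 in segregant 1 and 0.65 in segregant 2, and the median standard error was 0.18 between the parents and 0.26 for a segregant against a parent. At the edge of the threshold, YFH1 was inside with an adjusted p of 0.04999 and SPI1 outside with 0.05023.

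Genes with a large parental difference were resolved more often. Of the 253 genes that differed over 2-fold between the parents, segregant 1 was BY-like at 87, RM-like at 76 and unresolved at 76, and segregant 2 was BY-like at 120, RM-like at 41 and unresolved at 84. Taking both segregants together, 65 of the 253 were BY-like in both, 27 RM-like in both, 34 RM-like in segregant 1 and BY-like in segregant 2, and 8 the reverse. Counted against each parent over all probe sets, segregant 1 differed from RM at 553 (5.96%) and from BY at 277 (2.99%), and segregant 2 differed from RM at 643 (6.93%) and from BY at 140 (1.51%). With 1 probe set per gene, segregant 1 differed from RM at 3.78% of the 5656 genes (1.45% higher, 2.33% lower) and from BY at 3.08% (1.94% higher, 1.13% lower). Segregant 2 differed from RM at 5.27% (2.07% higher, 3.2% lower) and from BY at 1.56% (1.11% higher, 0.442% lower). The segregants differed from each other at 96 probe sets (1.04%), 35 higher (0.377%) and 61 lower (0.658%) in segregant 1, and at 1.17% of genes.

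The direction of the parental difference moved with the class. Among 396 probe sets over 2-fold lower in RM, segregant 1 was BY-like at 266 (67.2%) and segregant 2 at 318 (80.3%), while RM-like calls numbered 50 and 16. Among 200 probe sets over 2-fold higher in RM, segregant 1 was BY-like at 55 (27.5%) and RM-like at 65 (32.5%), and segregant 2 was BY-like at 80 (40.0%) and RM-like at 38 (19.0%). Of the probe sets lower in RM, 193 have no annotated gene, and there segregant 1 was BY-like at 79.8% and segregant 2 at 86.5%. Over genes, 77 were over 2-fold lower in RM, and segregant 1 was BY-like at 37 and RM-like at 21 of them, segregant 2 at 48 and 7. The probes follow the reference sequence, so less RNA and weaker hybridisation of an RM sequence cannot be told apart where RM is low.

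**Figure D2:**
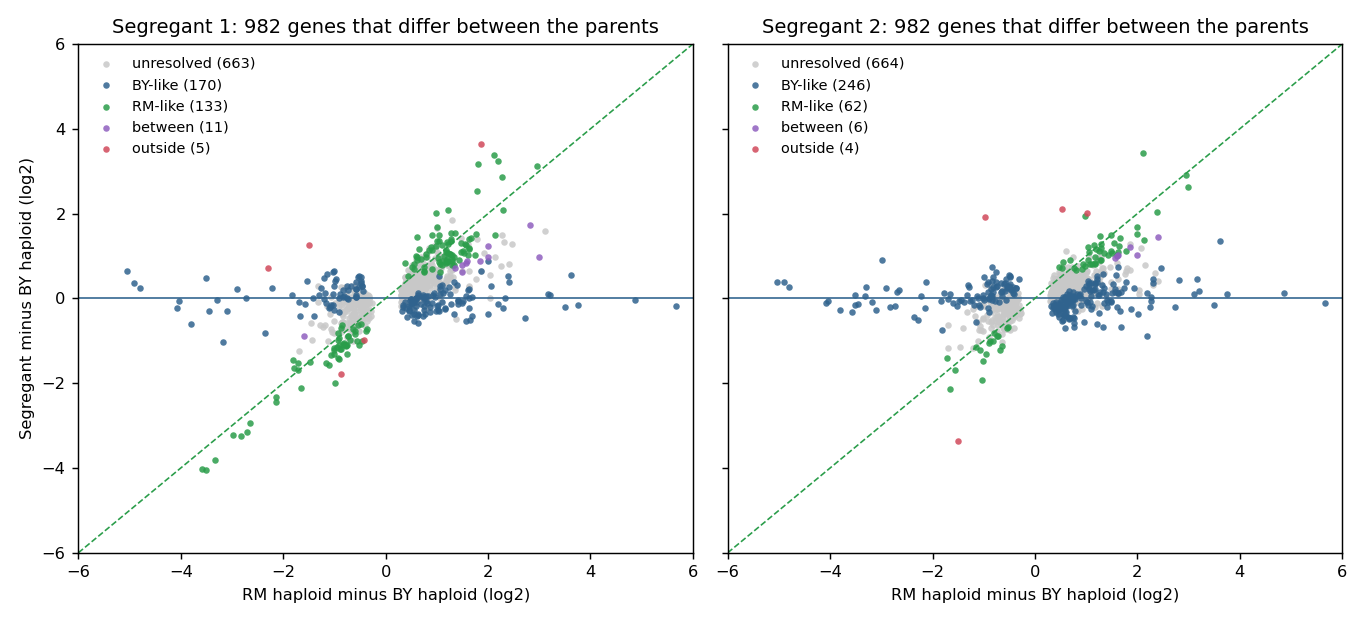
Log2 difference of each segregant from the BY mean (vertical axis) against the log2 difference of RM from BY haploids (horizontal axis) for the 982 genes called between the parents, 1 point per gene, coloured by class. The solid line is the BY mean and the dashed line the RM mean. BY-like genes (170 in segregant 1, 246 in segregant 2) lie along 0 and RM-like genes (133 and 62) along the diagonal.

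Genes that were BY-like in both segregants numbered 98 of the 982, the mating genes among them. Genes of uracil and lysine synthesis were others. URA3, orotidine-phosphate decarboxylase of pyrimidine synthesis, had 9.18 in segregant 1, 9.21 in segregant 2, 6.24, 6.61 and 6.27 in RM haploids, and 9.58, 9.53 and 9.31 in BY haploids. Both segregants were far above all RM haploid arrays and just below all BY haploid arrays. The difference from RM was 2.81 ± 0.24 in segregant 1 (adjusted p = 8.0e-09) and 2.84 in segregant 2 (adjusted p = 6.3e-09). URA1, dihydroorotate dehydrogenase of the same pathway, moved the other way between the parents, with 9.67 and 10.36 in the segregants, 12.02 to 12.42 in RM haploids and 9.58 to 10.13 in BY haploids. Its difference from RM was -2.53 ± 0.47 in segregant 1 (adjusted p = 6.0e-04) and -1.84 from RM in segregant 2 (adjusted p = 0.0126). In RM diploids URA3 had 8.39 to 8.63 and URA1 10.1 to 10.46, near the BY diploids (8.78 to 8.85 and 10.17 to 10.42). Of 12 measured pyrimidine genes 5 differed between the parents, and 3 of these were BY-like in both segregants, the third being URA4, named here after its values were seen.

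LYS2, the aminoadipate reductase of lysine synthesis, had 7.02 and 7.23 in the segregants, 9.38, 8.89 and 9.30 in RM haploids, and 7.45, 7.55 and 7.61 in BY haploids. Both segregants were below all 6 parental arrays, at -2.17 ± 0.36 from RM in segregant 1 (adjusted p = 1.8e-04) and -1.96 ± 0.36 in segregant 2 (adjusted p = 6.1e-04), with adjusted p of 0.85 and 1 against BY. It was the only one of 9 lysine genes that differed between the parents. In diploids LYS2 had 9.99 to 10.43 in RM and 8.71 to 8.87 in BY. PUT4, the proline permease, had 6.70 and 7.51 in the segregants, 9.22 to 10.35 in RM haploids and 5.67 to 6.43 in BY haploids. Its difference from RM was -3.07 ± 0.49 in segregant 1 and -2.26 ± 0.49 in segregant 2 (adjusted p = 1.1e-04 and 0.00346), although both arrays were above the BY arrays. COX1, the mitochondrially encoded subunit 1 of cytochrome oxidase, had 9.94 in segregant 1, 9.31 in segregant 2, 5.86, 6.29 and 5.73 in RM haploids, and 9.35, 9.36 and 9.69 in BY haploids, 3.98 ± 0.27 and 3.35 ± 0.27 above RM (adjusted p = 1.3e-10 and 2.8e-09). The other 2 probe sets of COX1 went the other way between the parents, with RM minus BY at 0.61 (adjusted p = 0.0331, both segregants unresolved) and 0.53 (adjusted p = 0.0868), so the direction at COX1 depends on the probe set.

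Genes that were RM-like in both segregants numbered 38 of the 982. INO1, which makes inositol phosphate for phospholipid synthesis, had 12.68 in segregant 1, 12.47 in segregant 2, 12.41, 12.59 and 12.57 in RM haploids, and 9.59, 9.69 and 9.42 in BY haploids. The segregants overlapped the RM arrays and were about 3 log2 units above BY, at 3.11 ± 0.25 (adjusted p = 1.8e-08) and 2.90 ± 0.25 (adjusted p = 1.5e-07). KTD1, a membrane protein gene linked to defence against a killer toxin, was low in RM and in both segregants, with 6.13 and 6.23 in the segregants, 5.86 to 5.97 in RM haploids and 7.26 to 7.87 in BY haploids. Segregant 1 was -1.51 ± 0.24 from BY (adjusted p = 2.9e-04) and segregant 2 -1.41 ± 0.24 (adjusted p = 0.0012).

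Of the 38 genes, 12 encode parts of the respiratory chain, and 15 parts of the chain or of ATP synthase. Of 27 measured respiratory chain genes 25 differed between the parents. The list holds mitochondrial COB but leaves out mitochondrial COX1, whose naming probe set was BY-like in both segregants. Segregant 1 was RM-like at 15, between at 7, BY-like at 2 and unresolved at 1, and segregant 2 was RM-like at 17, between at 4, BY-like at 1 and unresolved at 3. Against BY, segregant 1 was higher at 23 of the 27 (1.94% of all genes were higher), and segregant 2 was higher at 20 (1.11% of all genes) and lower at 1 (0.442%). The median position of these genes between the parents, where 0 is the BY mean and 1 the RM mean, was 0.64 in segregant 1 and 0.75 in segregant 2, beside 0.42 and 0.24 over all 982 genes. SDH2, the iron-sulphur subunit of succinate dehydrogenase, had 10.54 in segregant 1, 10.43 in segregant 2, 11.30, 11.05 and 11.19 in RM haploids, and 9.15, 9.18 and 8.82 in BY haploids. Both segregants lay between the parents without overlap, at 1.49 ± 0.25 (adjusted p = 5.2e-04) and 1.38 ± 0.25 (adjusted p = 0.00202) above BY and with adjusted p of 0.169 and 0.0734 against RM. QCR2, a subunit of the cytochrome bc1 complex, had 10.66 in each segregant, 10.27 to 11.33 in RM haploids and 8.91 to 9.56 in BY haploids. QCR9, another subunit of that complex, had 10.88 and 10.96 in the segregants, 11.05 to 11.57 in RM haploids and 9.62 to 9.84 in BY haploids. Both were RM-like in both segregants.

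Of 19 measured ATP synthase genes 15 differed between the parents (17.4% of all genes did). RM-like calls numbered 10 in segregant 1 and 5 in segregant 2, against 1 and 3 BY-like calls. Over all 982 genes that differed, 13.5% and 6.31% were RM-like in segregants 1 and 2, and 17.3% and 25.1% BY-like. INH1, the inhibitor of the mitochondrial ATPase, was 1.53 ± 0.21 above BY in segregant 1 (adjusted p = 4.5e-05) and 1.13 ± 0.21 in segregant 2 (adjusted p = 0.00265). The RM-like counts depended on the fit: with the haploid arrays alone, the respiratory genes gave 7 in segregant 1 and 9 in segregant 2, and the ATP synthase genes 3 and 0. With a replicate block on these arrays the respiratory counts were 4 and 2 and the ATP synthase counts 4 and 0, and with quantile normalization they were 8 and 9, and 5 and 2. BY-like calls with the block were 4 and 0 at the respiratory genes and 0 and 1 at the ATP synthase genes. With quantile normalization they were 2 and 3, and 4 and 7. At ATP synthase in segregant 2, BY-like calls thus outnumbered RM-like calls with that normalization, the reverse of the main fit.

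The mitochondrial gene COB, cytochrome b, was higher in both segregants than in either parent without passing the test on both sides. It had 7.73 in segregant 1, 7.76 in segregant 2, 6.17, 6.58 and 6.60 in RM haploids, and 4.59, 4.32 and 4.11 in BY haploids. The differences from BY were 3.39 ± 0.45 and 3.42 ± 0.45 (adjusted p = 3.4e-05 and 4.4e-05), and those from RM 1.28 ± 0.45 and 1.31 ± 0.45 (adjusted p = 0.111 and 0.0892). The other probe set of COB was not called.

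Genes that were RM-like in segregant 1 and BY-like in segregant 2 numbered 47. Many genes of daughter cell separation were among them, which encode glucanases, a chitinase and other proteins that the daughter cell makes to dissolve the septum it shares with its mother. Of 16 measured members 12 differed between the parents. Segregant 1 was RM-like at 9, outside both parents at 2 and unresolved at 1, and segregant 2 was BY-like at 9 and unresolved at 3. Between the segregants 11 of the 16 were lower in segregant 1 (0.778% of all genes were) and 0 higher, with a median difference of -1.17, beside -0.02 over all genes. With the haploid arrays alone 6 of them were lower. The labels give no cell density.

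CTS1, the endochitinase of cell separation, had 8.44 in segregant 1, 12.15 in segregant 2, 8.89, 8.71 and 9.05 in RM haploids, and 12.54, 12.55 and 12.30 in BY haploids. Segregant 1 was below even the RM arrays and segregant 2 just below the BY arrays, a difference of -3.71 ± 0.25 between them (adjusted p = 9.1e-10). DSE2, a daughter-specific wall protein with a glucanase-like sequence, had 7.55 in segregant 1, 11.42 in segregant 2, 7.81, 8.32 and 7.98 in RM haploids, and 11.39, 11.52 and 11.17 in BY haploids. The segregants differed by -3.87 ± 0.22 (adjusted p = 3.1e-11). SCW11, a glucanase-like wall protein, had 6.35 and 9.48 in segregants 1 and 2, 6.53 to 6.78 in RM haploids and 9.21 to 9.40 in BY haploids, a difference of -3.13 between the segregants (adjusted p = 1.7e-07). DSE1, a daughter-specific protein of cell wall metabolism, had 5.66 and 8.51 in segregants 1 and 2, 5.93 to 6.03 in RM haploids and 7.87 to 8.45 in BY haploids (adjusted p = 3.2e-04 between the segregants). In RM diploids these genes were above the RM haploids. There CTS1 had 11.35 to 11.52, DSE2 10.63 to 10.85, SCW11 8.29 to 8.77 and DSE1 7.23 to 7.75. BY diploids had 12.41 to 12.52, 11.67 to 11.82, 9.43 to 9.55 and 8.03 to 8.06.

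AMN1, an antagonist of mitotic exit that also acts on daughter cell separation, stood with them. It had 9.16 in segregant 1, 10.32 in segregant 2, 9.09, 8.76 and 9.27 in RM haploids, and 10.02, 10.08 and 9.81 in BY haploids. Segregant 1 lay within the RM range and segregant 2 above the BY range, with a difference of -1.16 ± 0.20 (adjusted p = 0.00152). In RM diploids AMN1 had 8.45 to 8.53, below the RM haploids, and in BY diploids 9.02 to 9.18. PRY3, a wall protein that binds sterols, and DSE3 went beyond the RM level in segregant 1. PRY3 had 7.81 in segregant 1, 9.83 in segregant 2, 8.89, 8.65 and 8.68 in RM haploids, and 9.65, 9.79 and 9.37 in BY haploids, so segregant 1 was -0.93 ± 0.18 from RM (adjusted p = 9.0e-04) and -1.79 ± 0.18 from BY (adjusted p = 5.2e-07). DSE3 was -0.56 ± 0.15 from RM in segregant 1 (adjusted p = 0.0178), and without RM haploid replicate 1 this adjusted p was 0.062.

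Of 15 measured genes of leucine and branched-chain synthesis 11 differed between the parents (17.4% of all genes did). Segregant 1 was RM-like at 6 and between at 1, while segregant 2 was BY-like at 6. Over all 982 genes that differed, segregant 1 was RM-like at 13.5% and segregant 2 BY-like at 25.1%. LEU2, isopropylmalate dehydrogenase, had 7.43 in segregant 1, 10.47 in segregant 2, 7.74, 8.33 and 7.49 in RM haploids, and 10.75, 10.68 and 10.60 in BY haploids. Segregant 1 was below all RM arrays and segregant 2 close below all BY arrays, -3.04 ± 0.28 apart (adjusted p = 2.4e-07), and the other 2 probe sets of LEU2 had the same classes. LEU1 was high where LEU2 was low. LEU1, the isopropylmalate isomerase one step before it, had 12.62 in segregant 1, 10.89 in segregant 2, 12.64, 13.10 and 12.77 in RM haploids, and 10.76, 10.40 and 10.45 in BY haploids, a difference of 1.73 ± 0.25 (adjusted p = 1.8e-04). In RM diploids LEU2 had 9.96 to 10.03 and LEU1 10.82 to 10.86, near the BY diploids (10.28 to 10.32 and 10.77 to 10.98).

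OAC1, the mitochondrial carrier of oxaloacetate and isopropylmalate, had 10.73 in segregant 1, 9.42 in segregant 2, 11.88, 11.82 and 11.71 in RM haploids, and 9.28, 8.98 and 8.72 in BY haploids. It was between the parents in segregant 1, which differed from RM by -1.07 ± 0.21 (adjusted p = 0.00137) and from BY by 1.74 ± 0.21 (adjusted p = 1.2e-05). BAT1, the mitochondrial branched-chain aminotransferase, had 11.87 and 11.05 in segregants 1 and 2, 12.02 to 12.52 in RM haploids and 10.87 to 10.93 in BY haploids, a difference of 0.82 ± 0.19 (adjusted p = 0.0305). Between the segregants 3 members were higher in segregant 1 (0.389% of all genes were) and 1 lower, and with the haploid arrays alone 1 was higher.

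Other genes of this class had large differences too. COS6, of a subtelomeric family whose members act in protein sorting to the vacuole, had 5.86 in segregant 1, 9.98 in segregant 2, 6.33, 6.79 and 6.05 in RM haploids, and 9.91, 10.06 and 9.73 in BY haploids, a difference of -4.12 ± 0.30 (adjusted p = 3.8e-09). REE1, a cytoplasmic protein linked to enolase, had 5.80 and 9.93 in segregants 1 and 2, 5.67 to 6.25 in RM haploids and 8.84 to 9.22 in BY haploids, -4.13 ± 0.32 apart (adjusted p = 7.4e-09). ENA5, a sodium pump of the plasma membrane, had 5.73 and 9.04 in segregants 1 and 2, 5.98 to 6.39 in RM haploids and 8.68 to 9.05 in BY haploids, -3.31 ± 0.27 apart (adjusted p = 3.1e-08). At each of the 3, segregant 1 was at or below the RM arrays and near the low end of the scale, and segregant 2 overlapped or exceeded the BY arrays. COS6 and ENA5 have close relatives in the genome, which makes their probe sets less certain. FET4, a low-affinity iron and zinc transporter, had 5.37 and 6.34 in segregants 1 and 2, 5.60 to 5.85 in RM haploids and 6.77 to 7.01 in BY haploids, -0.97 ± 0.21 apart (adjusted p = 0.0217).

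The reverse class, BY-like in segregant 1 and RM-like in segregant 2, had 12 genes. COX5B, the isoform of cytochrome oxidase subunit V used when oxygen is low, had 9.37 in segregant 1, 6.82 in segregant 2, 7.69, 7.63 and 7.82 in RM haploids, and 8.84, 8.66 and 8.74 in BY haploids. Segregant 1 was above all 6 parental arrays and segregant 2 below all 6, with a difference of 2.55 ± 0.41 between them (adjusted p = 6.9e-04), while segregant 1 against BY had an adjusted p of 0.644 and segregant 2 against RM 0.132. RPL16A, a protein of the large ribosomal subunit, had 12.79 in segregant 1, 11.23 in segregant 2, 11.34, 11.57 and 11.18 in RM haploids, and 12.95, 12.91 and 12.93 in BY haploids, a difference of 1.56 ± 0.36 (adjusted p = 0.0307). PLN1, a lipid droplet protein, had 8.58 and 10.11 in segregants 1 and 2, 10.10 to 10.66 in RM haploids and 7.77 to 8.35 in BY haploids. CWP1, a mannoprotein of the cell wall, had 11.84 and 12.92 in segregants 1 and 2, 13.11 to 13.42 in RM haploids and 11.88 to 12.24 in BY haploids, -1.08 ± 0.25 apart (adjusted p = 0.0343). EMA19, which acts in protein targeting to mitochondria, had 9.12 and 10.47 in segregants 1 and 2, 10.17 to 10.47 in RM haploids and 8.98 to 9.49 in BY haploids, -1.35 ± 0.23 apart (adjusted p = 0.00125). At PLN1 the segregants were -1.53 ± 0.48 apart and not called (adjusted p = 0.213).

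Sterol synthesis held members of this class. Of 26 measured ergosterol genes 13 differed between the parents, and segregant 1 was BY-like at 9, RM-like at 0 and between at 1, while segregant 2 was BY-like at 2 and RM-like at 4. The median position was -0.07 in segregant 1 and 0.81 in segregant 2, beside 0.42 and 0.24 over all 982 genes. HMG1, an HMG-CoA reductase early in the pathway, had 9.64 in segregant 1, 10.85 in segregant 2, 10.84 to 11.11 in RM haploids, and 9.97, 10.15 and 9.72 in BY haploids, a difference of -1.21 ± 0.27 (adjusted p = 0.0247). ERG5, the sterol desaturase, had 8.98 in segregant 1, 10.04 in segregant 2, 10.33, 10.09 and 10.36 in RM haploids, and 9.32, 9.36 and 9.15 in BY haploids, a difference of -1.06 ± 0.18 (adjusted p = 0.00142). Segregant 1 was below all BY arrays and segregant 2 close to the RM arrays at both genes. With ERG13 and ERG28, 4 members were lower in segregant 1 than in segregant 2, and with the haploid arrays alone 0 were. The adjusted p of HMG1 in segregant 2 against BY was 0.0392, and it was 0.0712 without BY haploid replicate 1 and 0.129 without BY haploid replicate 3.

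CYC1, iso-1-cytochrome c, was at the RM level in segregant 2 and between the parents in segregant 1. It had 9.91 in segregant 1, 11.56 in segregant 2, 11.87, 11.81 and 12.07 in RM haploids, and 9.08, 8.84 and 8.86 in BY haploids. No group overlapped another. Segregant 1 was 0.98 ± 0.17 above BY (adjusted p = 7.4e-04) and -2.01 ± 0.17 from RM (adjusted p = 4.3e-09), and the segregants differed by -1.65 ± 0.20 (adjusted p = 2.6e-05). CYC1 is a target of Hap1, a haem-dependent activator. Of 13 measured genes on the list of Hap1 targets, which also counts HAP1, 11 differed between the parents. Segregant 1 was BY-like at 2, RM-like at 3 and between at 1, and segregant 2 was BY-like at 1, RM-like at 5 and outside at 1. Over all 982 genes that differed, the BY-like shares were 17.3% and 25.1% in segregants 1 and 2, and the RM-like shares 13.5% and 6.31%. HAP1 itself, on a probe set that can share sequence with relatives, had 10.60 and 10.29 in the segregants, 8.87 to 10.49 in RM haploids and 9.39 to 11.52 in BY haploids, so that segregant 1 lay above all RM arrays, with no call (adjusted p = 0.452 against RM). Of its other 2 probe sets, 1 without that limit had RM minus BY at -0.87 (adjusted p = 6.8e-05) and was BY-like in segregant 1 and RM-like in segregant 2, and the other was not called between the parents (adjusted p = 0.123).

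**Figure D3:**
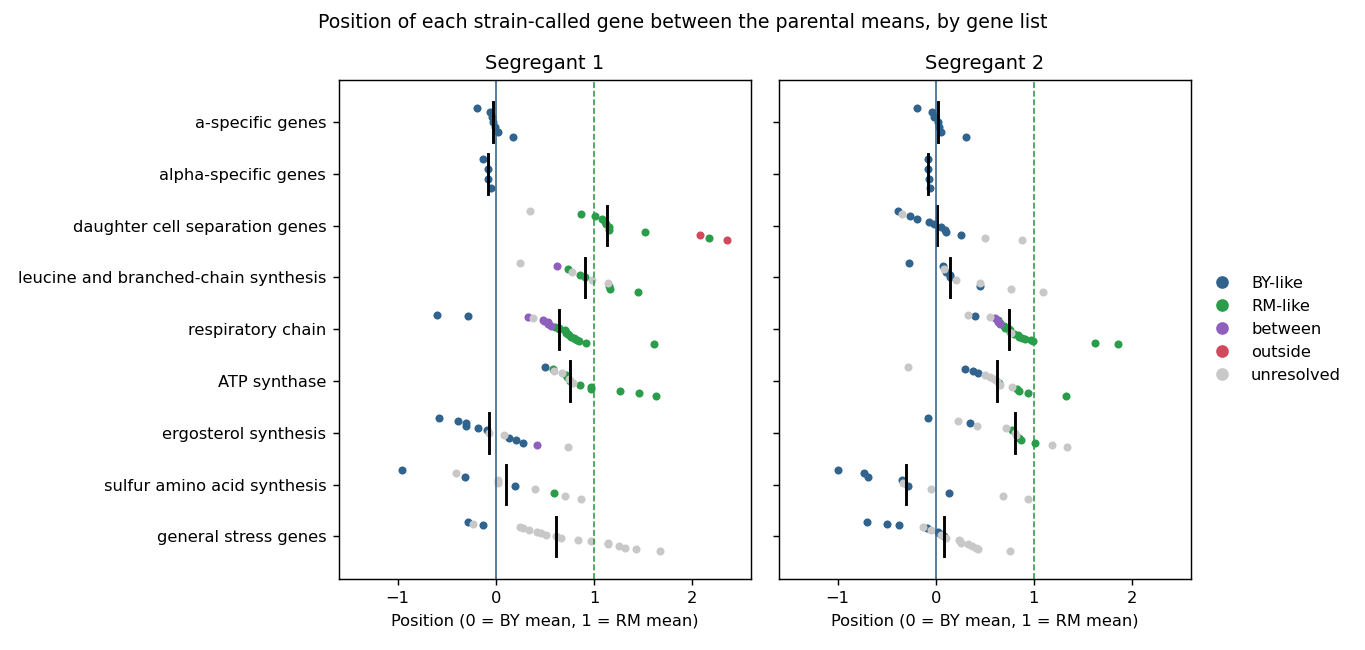
Position of each strain-called gene between the parental means (horizontal axis, 0 is the BY mean and 1 the RM mean), with 1 point per gene, by gene list (vertical axis) and segregant (panels), coloured by class, and a black bar at the median of each list. Daughter cell separation genes have a median of 1.14 in segregant 1 and 0.01 in segregant 2, and ergosterol genes -0.07 and 0.81.

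Levels outside both parents in both segregants were called at 1 gene. No probe set passed above both parents in all 4 contrasts (0.0% of 9274), and 1 passed below (0.0108%). At an unadjusted limma p under 0.05 in all 4 contrasts, 14 lay above all parental arrays and 8 below. It was HXT1, a low-affinity glucose transporter that is induced by high glucose. HXT1 had 8.28 in segregant 1, 8.35 in segregant 2, 10.17, 10.45 and 10.63 in RM haploids, and 11.71, 11.48 and 11.16 in BY haploids. Both segregants were almost equal and below every parental array, and all RM arrays were below all BY arrays. Segregant 1 was -2.14 ± 0.56 from RM (adjusted p = 0.0183) and -3.17 ± 0.56 from BY (adjusted p = 0.00104). Segregant 2 was -2.07 ± 0.56 from RM (adjusted p = 0.021) and -3.10 ± 0.56 from BY (adjusted p = 0.00222). Without RM haploid replicate 3 the adjusted p of segregant 2 against RM was 0.0518. With no test, both segregants lay above all 6 parental arrays at 221 probe sets (2.38%) and below all 6 at 415 (4.47%), and on opposite sides at 269 (2.9%).

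Some other hexose transporters were high in the segregants. HXT4, a glucose transporter of higher affinity, named here after its values were seen, had 10.69 in segregant 1, 10.43 in segregant 2, 8.68, 9.35 and 8.95 in RM haploids, and 7.98, 8.03 and 8.15 in BY haploids. Both segregants were above all 6 parental arrays, with adjusted p of 0.00371 and 0.0155 against BY and 0.0605 and 0.122 against RM. HXT2, a high-affinity transporter, had 10.83 in segregant 1, 11.92 in segregant 2, 10.46, 10.16 and 10.43 in RM haploids, and 9.90, 9.42 and 9.77 in BY haploids, and was called above both parents in segregant 2 (2.22 ± 0.39 from BY, adjusted p = 0.00182, and 1.57 ± 0.39 from RM, adjusted p = 0.0113). Of 14 measured members of the list, segregant 1 was above BY at 4 (1.94% of all genes were) and below it at 2 (1.13%), and segregant 2 was above BY at 2 (1.11%) and below it at 1 (0.442%). The 4 were HXT4, HXT6, HXT7 and MTH1, and the 2 HXT1 and HXT3. HXT6 and HXT7 are near-identical genes that their probe sets cannot tell apart, and MTH1 is on the list but is not itself a transporter. Between the parents 2 of the 14 differed. The labels do not give the glucose left in each culture.

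QDR2, a drug and potassium transporter of the plasma membrane, lay on opposite sides of the parents in the 2 segregants. It had 10.93 in segregant 1, 6.32 in segregant 2, 7.86, 8.33 and 8.36 in RM haploids, and 9.60, 9.70 and 9.73 in BY haploids. Segregant 1 was above every parental array and segregant 2 below every one. Segregant 1 was 2.75 above RM (adjusted p = 2.9e-10) and 1.25 ± 0.20 above BY (adjusted p = 2.9e-04), and segregant 2 was -1.86 from RM (adjusted p = 2.0e-07) and -3.36 from BY (adjusted p = 7.5e-11). The segregants differed by 4.61 ± 0.24 (adjusted p = 1.0e-11). In diploids QDR2 had 6.42 to 6.62 in RM and 10.2 to 10.27 in BY.

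Segregant 1 was above both parents at 21 probe sets (0.226%) and below both at 8 (0.0863%), and 20 and 7 of these were not outside in segregant 2. ARG3 and CPA1 of arginine synthesis were above. ARG3, ornithine carbamoyltransferase, had 9.74 in segregant 1, 7.39 in segregant 2, 7.91 to 8.0 in RM haploids, and 6.36, 5.96 and 5.99 in BY haploids. Segregant 1 was 1.77 ± 0.43 above RM (adjusted p = 0.0102) and 3.64 ± 0.43 above BY (adjusted p = 7.3e-06), and segregant 2 lay between the parents. CPA1, the small subunit of the carbamoyl phosphate synthetase of arginine synthesis, had 11.37 in segregant 1, 9.93 in segregant 2, 9.99 to 10.19 in RM haploids and 9.64 to 10.14 in BY haploids, with adjusted p of 0.0394 against RM and 0.0367 against BY. ARG1, argininosuccinate synthetase, had 12.03 in segregant 1, 9.58 in segregant 2, 10.47 to 10.77 in RM haploids and 8.47 to 9.12 in BY haploids. It was 3.18 ± 0.43 above BY in segregant 1 (adjusted p = 4.6e-05), with an adjusted p of 0.0641 against RM. RM diploids were above segregant 1 at each of these genes. They had 11.05 to 11.38 at ARG3, 12.28 to 12.65 at CPA1 and 12.12 to 12.59 at ARG1. BY diploids had 6.24 to 6.55, 10.18 to 10.23 and 9.16 to 9.29. Of 8 measured arginine genes 5 were above BY in segregant 1 (1.94% of all genes were) and 0 in segregant 2 (1.11% of all genes). At an unadjusted limma p under 0.05, 8 differed from BY in segregant 1 and 1 was above it in segregant 2. Over all 9274 probe sets, 860 differed from BY at that limit in segregant 1 and 616 in segregant 2. The median difference between the segregants was 1.34, beside -0.02 over all genes.

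Other genes above both parents in segregant 1 act in storage, respiration, haem synthesis and adhesion. GSY1, glycogen synthase, had 9.79 in segregant 1, 7.99 in segregant 2, 7.96, 8.16 and 8.47 in RM haploids, and 7.80, 7.46 and 7.87 in BY haploids, with 1.59 ± 0.40 from RM (adjusted p = 0.0142) and 2.08 ± 0.40 from BY (adjusted p = 0.00273). RPI1, a regulator that lowers Ras signalling, had 8.79 and 7.73 in segregants 1 and 2, 7.08 to 7.56 in RM haploids and 7.54 to 7.75 in BY haploids. SDH3, the membrane anchor subunit of succinate dehydrogenase, had 10.91 and 10.29 in segregants 1 and 2, 9.77 to 10.45 in RM haploids and 9.75 to 10.01 in BY haploids. HEM13, coproporphyrinogen oxidase of haem synthesis, had 9.66 and 9.10 in segregants 1 and 2, 8.53 to 8.82 in RM haploids and 8.80 to 8.91 in BY haploids. Segregant 2 was also above all 6 parental arrays at HEM13 and was not called. AGA1, the wall anchor of a-agglutinin, had 10.27 and 9.03 in segregants 1 and 2, 7.17 to 7.39 in RM haploids and 9.38 to 9.75 in BY haploids. Its call in segregant 1 against BY (adjusted p = 0.0405) was lost without BY haploid replicate 1 (0.101), BY haploid replicate 3 (0.113) or RM haploid replicate 1 (0.0504). HPF1, a mannoprotein of the wall, was below both parents in segregant 1, with 7.90 in segregant 1, 8.86 in segregant 2, 9.56, 9.53 and 9.19 in RM haploids, and 9.29, 9.31 and 9.29 in BY haploids. It was -1.53 ± 0.19 from RM (adjusted p = 2.6e-06) and -1.40 ± 0.19 from BY (adjusted p = 4.6e-05).

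Segregant 2 was above both parents at 17 probe sets (0.183%) and below both at 6 (0.0647%), and 17 and 4 of these were not outside in segregant 1. FLO11, the flocculin of invasive growth and biofilms, had 7.48 in segregant 1, 9.73 in segregant 2, 7.25, 8.12 and 7.44 in RM haploids, and 6.94, 7.03 and 7.66 in BY haploids. Segregant 1 and the parents overlapped, and segregant 2 was 2.13 ± 0.28 above RM (adjusted p = 5.2e-06) and 2.52 ± 0.28 above BY (adjusted p = 5.2e-06). BSC1, whose protein resembles a flocculin, had 5.29 in segregant 1, 9.21 in segregant 2, 5.72, 6.90 and 6.27 in RM haploids, and 6.58, 7.02 and 6.22 in BY haploids. PRM7, a pheromone-regulated membrane protein gene next to BSC1 on chromosome IV, had 7.85 in segregant 1, 9.85 in segregant 2, 8.26, 8.54 and 8.17 in RM haploids, and 8.05, 8.32 and 8.14 in BY haploids, and a second probe set of PRM7 was also above both parents. The parents did not differ by the test at FLO11, BSC1 and PRM7.

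Subtelomeric genes and a haemoprotein were also above both parents in segregant 2. COS12, of the COS family, had 4.79 and 7.08 in segregants 1 and 2, 5.38 to 5.63 in RM haploids and 4.66 to 5.2 in BY haploids. COS8, of the same family, had 5.27 in segregant 1, 9.17 in segregant 2, 6.17, 6.95 and 5.71 in RM haploids, and 7.54, 7.61 and 6.63 in BY haploids. It was 2.89 ± 0.45 above RM (adjusted p = 8.0e-05) and 1.91 ± 0.45 above BY (adjusted p = 0.0291), at 2 of its 3 probe sets, and BY diploids had 9.02 to 9.25. YHB1, the flavohaemoglobin that detoxifies nitric oxide, had 11.15 in segregant 1, 12.70 in segregant 2, 11.74, 11.68 and 11.66 in RM haploids, and 10.91, 10.84 and 10.30 in BY haploids. Segregant 2 was above RM (adjusted p = 0.00194) and 2.02 ± 0.21 above BY (adjusted p = 2.4e-06), at 3 of its 4 probe sets, of which the naming one can share sequence with other transcripts. On the naming probe set RM diploids had 12.39 to 12.98, a range that holds segregant 2, and BY diploids 11.51 to 11.75. PBP4, a protein that binds the regulator Pbp1, was below both parents in segregant 2, with 8.83 and 8.11 in segregants 1 and 2, 8.58 to 8.87 in RM haploids and 8.82 to 8.92 in BY haploids.

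**Figure D4:**
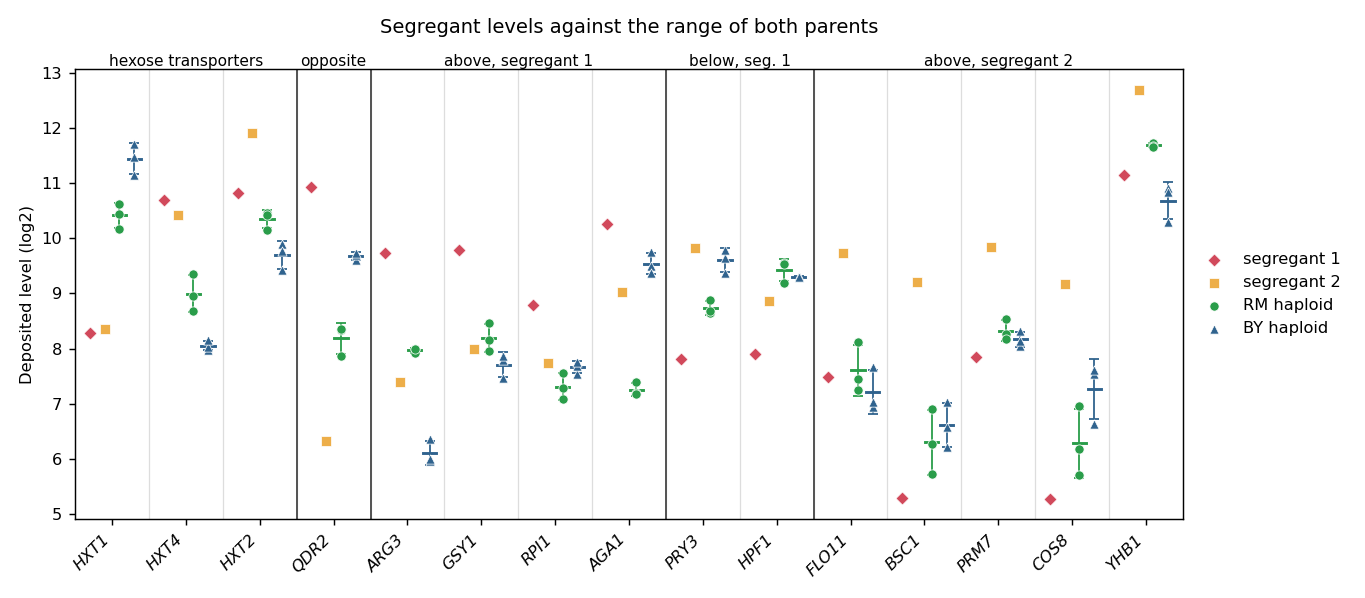
Deposited log2 levels (vertical axis) of genes outside both parents in at least 1 segregant, with HXT4 and HXT2 beside HXT1 (horizontal axis), with 1 point per array and bars and whiskers for the parents' mean and SD (n = 3). HXT1 is low in both segregants (8.28 and 8.35), QDR2 is at 10.93 in segregant 1 and 6.32 in segregant 2, and FLO11 is at 9.73 in segregant 2, above the other 7 arrays.

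Classes were then laid along the chromosomes, a property that the class did not use. Between neighbouring probe sets of different genes, over 2-fold apart between the parents, the class was the same at 88 of 157 pairs in segregant 1 (56.1%, beside 50.7% from the class totals alone) and at 95 of 153 pairs in segregant 2 (62.1%, beside 66.1%). With only the probe sets higher in RM, the shares were 49.5% and 57.8%, beside 50.2% and 57.3% from the totals. Some neighbours did move together. QDR2 and RPI1 on chromosome IX, with 1 annotated gene between them, were both above the parents in segregant 1, and RPL16A and COX5B lie on the same chromosome and were higher in segregant 1 than in segregant 2. PRM7 and BSC1 are adjacent genes and were both high in segregant 2. These pairs were picked after their values were seen, and gene order is that of the R64 reference annotation.

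**Figure D5:**
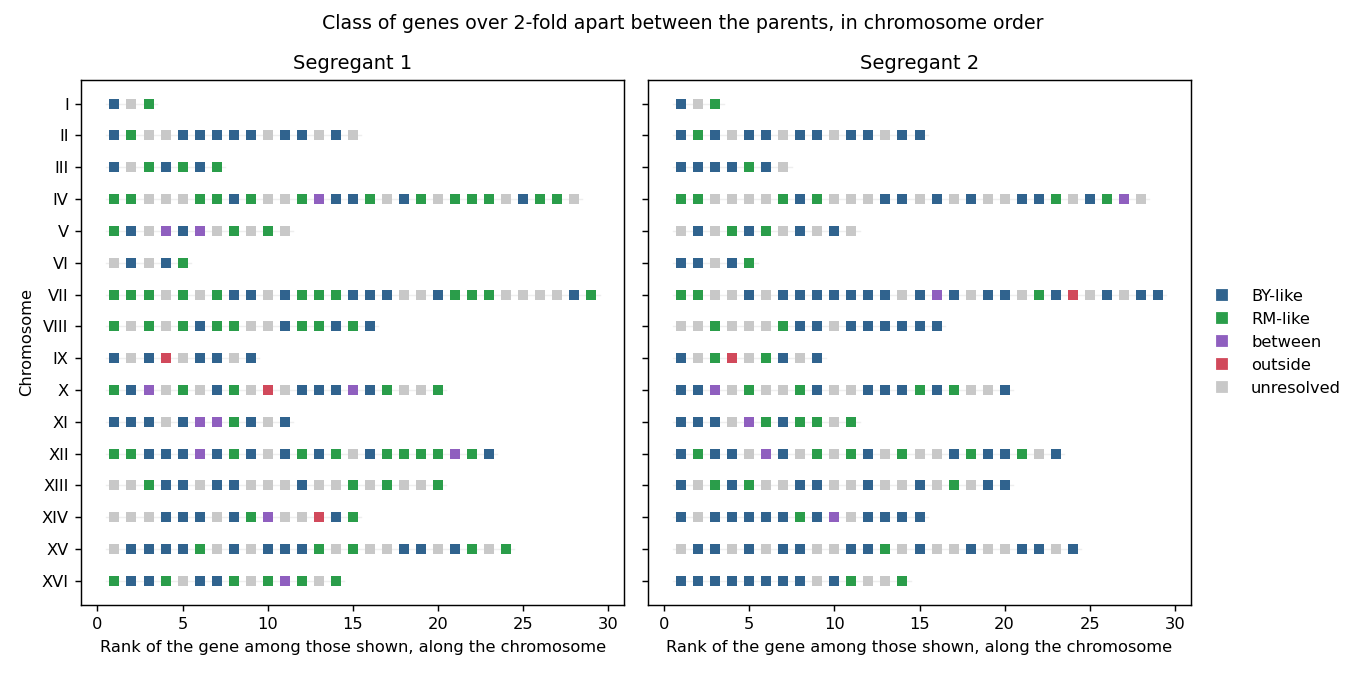
Class of each gene over 2-fold apart between the parents, in its order along the 16 nuclear chromosomes (vertical axis; the horizontal axis is the rank of the gene among those shown), in segregant 1 and segregant 2. On chromosome II segregant 1 was BY-like at 9 genes and RM-like at 1, and segregant 2 at 10 and 1. On chromosome IV the counts were 5 and 13 in segregant 1 and 8 and 6 in segregant 2. Over all 253 such genes, mitochondrial ones included, they were 87 and 76 in segregant 1 and 120 and 41 in segregant 2.

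Many of the genes that differed between the parents were unresolved, in several lists as over all genes. Over all 982 such genes, 663 were unresolved in segregant 1 and 664 in segregant 2. Of 34 measured general stress genes 19 differed between the parents, and segregant 1 was BY-like at 2 and unresolved at 17, and segregant 2 BY-like at 7 and unresolved at 12. Of 25 genes of sulfur amino acid synthesis 10 differed between the parents. In segregant 1, 3 were BY-like, 1 RM-like and 6 unresolved, and in segregant 2, 6 were BY-like and 4 unresolved. Of 55 mitochondrial ribosomal protein genes 17 differed, with 2 BY-like in segregant 1 and 3 in segregant 2. CTT1, the cytosolic catalase, had 8.58 in segregant 1, 7.10 in segregant 2, 9.74, 9.97 and 10.60 in RM haploids, and 6.83, 7.24 and 6.93 in BY haploids. It was -3.0 ± 0.56 from RM in segregant 2 (adjusted p = 7.3e-04), and segregant 1, which lay between the parents without overlap, was called against neither (adjusted p = 0.144 against RM and 0.203 against BY). Of 17 purine synthesis genes 0 differed between the parents and 0 from BY in either segregant by limma. At an unadjusted p under 0.05, 3 differed between the parents, 2 in segregant 1 and 0 in segregant 2. Ribosome biogenesis (56 genes), glycolysis and fermentation (18) and the G1 cyclins and G1/S genes (17) likewise had 0 calls against BY in either segregant. Their median differences from BY were -0.48, -0.03 and -0.26 in segregant 1, beside 0.01 over all genes. In segregant 2 they were 0.11, -0.04 and -0.05, beside 0.02. Over all genes the shares called against BY were 3.08% in segregant 1 and 1.56% in segregant 2. At these shares, lists of this size can have few calls or none. At an unadjusted p under 0.05 the counts of these 3 lists were 8, 1 and 3 in segregant 1 and 0, 0 and 1 in segregant 2. Over all 9274 probe sets, 2666 passed that limit between the parents, 860 in segregant 1 against BY and 616 in segregant 2 against BY. Uncalled genes are not shown to be equal.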

How the data were processed

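Values were used as deposited: 1 level per probe set and array on a log2 scale, judged from their range. No software of the authors is named in the sources used here. All value columns belong to a sample (0 unmapped). Of 9335 probe sets, 60 controls and 1 at 0 throughout were left out. Platform annotation gave 6504 probe sets 1 gene, 328 several and 2442 none, and all 6504 matched R64. The probe set with the highest mean named a gene (5656 genes). Probe sets ending f_at, s_at, i_at or r_at (MFA1, HXT6, HXT7 and YHB1 among them) can share sequence with relatives.

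Group means were fitted with limma 3.58.1 (R 4.3.3) on 26 arrays in 8 groups with 18 residual degrees of freedom, each segregant being its own group, two-sided, with Benjamini-Hochberg adjustment at 0.05. The fit was tested on simulated data. Figures used Python 3.11.15 and matplotlib 3.10.9. Members and the 36 gene lists were chosen with earlier results of these data known.

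Named genes are those outside both parents in both segregants (up to 12 per direction), the 8 largest parental differences of each pair of classes, the 6 farthest above and below in 1 segregant alone, all on opposite sides, up to 4 per list called between the segregants, and a set of mating, auxotrophy and other genes. Part of them is named. Those said to be chosen after their values were seen, and genes listed only to spell out a count, fall outside it. Alternatives were quantile normalization, median centring, a floor at the 10th percentile, leaving out the dimmest 25%, a variance trend, 1 probe set per gene, haploid arrays alone, a replicate block, the nearest parental mean, and leaving out arrays.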

Additional observations from a re-analysis of the deposited data

Results flagged for a closer look

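QDR2 stood on opposite sides of the parents in the segregants, and that difference was tested. Segregant 1 minus segregant 2 was 4.61 ± 0.24 on the log2 scale (limma, adjusted p = 1.0e-11), with segregant 1 at 10.93 and segregant 2 at 6.32. The value rests on 1 array per segregant. Replicate groups of 3 arrays and single arrays were not screened for outlying samples.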

How the results depend on the processing

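Of 242 called differences of named genes, 0 reversed direction under the alternatives run. The balance of classes within a list could change, as at the ATP synthase genes of segregant 2 with quantile normalization. Counts of probe sets moved over 1.5 times as follows. With 1 probe set per gene, 5656 genes were tested and not 9274 probe sets. The counts were then 1021 for RM minus BY, 199 and 283 for segregants 1 and 2 against RM, and 157 and 238 for their BY-like classes. Over the same 5656 genes the main fit had 982, 214, 298, 170 and 246, so most of this move is the smaller number tested. With the haploid arrays alone they were 184 and 59 for segregants 1 and 2 against BY, 54 between the segregants and 38 RM-like in segregant 2. Replicate numbers do not pair the samples (correlations of same-numbered deviations were 0.299, -0.291 and 0.005). With the replicate block on the haploid arrays, counts were 142 and 37 against BY, 47 between the segregants, and 118 and 19 RM-like in segregants 1 and 2. Without mRNA mixture replicate 5 in the fit the segregants differed at 171. The other contrasts also had more calls then, by less than 1.5 times. They had 2244 for RM minus BY, 398 and 190 for segregants 1 and 2 against BY, and 765 and 896 against RM. By the nearest parental mean, without a test, segregant 1 was BY-like at 1061 and RM-like at 608, and segregant 2 at 1247 and 422. Probe sets outside both parents in both segregants numbered 5 with the floor, 3 with the haploid arrays alone, 4 with quantile normalization, 3 with the block, 6 without mixture replicate 5, and 1 to 3 when a parental array was left out. The 3 without RM haploid replicate 3 did not include HXT1. Neighbour agreement in segregant 2 was 69.6% without the 2-fold minimum (68.5% from class totals alone), 73.5% with the haploid arrays alone (76.2%) and 70.2% with quantile normalization (73.6%). Of 3622 re-evaluations of 242 called differences of named genes, 3441 kept the call and 181 lost it, 48 of these with the haploid arrays alone and 56 with the block. The lone segregant arrays limit precision, with a median standard error of 0.26 against a parent and 0.31 between segregants, beside 0.18 between the parents.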

Other observations

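Ty3 retrotransposon sequences were high in segregant 1. At YGR109W-B, 6 of 23 probe sets were above both parents in segregant 1, and they can share sequence with other Ty3 copies. On the one with the largest difference from BY, the level was 10.43 in segregant 1, 9.54 in segregant 2, 8.26 to 8.45 in RM haploids and 9.55 to 9.79 in BY haploids. YOR302W, the upstream reading frame in the leader of the CPA1 transcript, had 11.40 in segregant 1, 9.74 in segregant 2, 9.83 to 10.08 in RM haploids and 9.29 to 9.84 in BY haploids, the same order as CPA1. These were picked after their values were seen.

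GSC2, a glucan synthase subunit, came close to passing above both parents in both segregants, on the probe set with 9.99 in segregant 1, 9.91 in segregant 2 and 7.67 to 9.43 over the 6 parental arrays, and a largest adjusted p of 0.115 (limma) over the 4 contrasts. At RAD50, of DNA break repair, 1 of 6 probe sets was above both parents in segregant 2, with 8.40 in segregant 2, 5.66 in segregant 1, 5.76 to 6.23 in RM haploids and 5.44 to 6.14 in BY haploids.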
